A study of Mus musculus with 17 samples.

Results

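The PI3K, Akt and mTOR pathway carries the insulin signal from the activated insulin receptor to glucose uptake, glycogen synthesis and protein synthesis. Phosphoinositide 3-kinase (PI3K) makes the membrane lipid that recruits the kinases PDK1 and Akt, Akt then restrains the GSK3 kinases and the TSC proteins, and mTOR, freed through the GTPase Rheb, drives translation through the S6 kinases and the eIF4E-binding proteins. In skeletal muscle the pathway is known for supporting growth and insulin-stimulated glucose disposal, and low insulin is known to release FoxO factors, which Akt otherwise keeps out of the nucleus. Its transcripts were described here through a list of 34 genes, taken by name and with earlier results of these data known. Of these, 33 had a probe set annotated to them alone, among 19938 genes measured in that way, and where a gene had several probe sets the brightest was used. Rps6kb1, the S6 kinase 1 gene, was not analysed here.

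The values came from 17 microarrays of mouse skeletal muscle, each from a separate mouse, and were log2 expression values. All mice were wildtype C57BL/6N males aged 5 to 6 months. The control group (Con,SD) received mock injections with citrate buffer and standard diet and held 7 arrays. The streptozotocin group (STZ,SD) received 65 mg/kg of streptozotocin, a toxin that destroys the insulin-producing beta cells, on 5 successive days at an age of 10 to 16 weeks, then standard diet, and held 5 arrays. The third group (STZ,BEZ) received the same injections and, starting 2 weeks later and lasting 8 weeks, a diet with bezafibrate, a lipid-lowering agonist of the PPAR nuclear receptors, and also held 5 arrays. The labels give the diet as 0.25% or 0.5% bezafibrate and do not say which mouse had which. The methods text differs from the labels in that it gives a lower streptozotocin dose, the higher diet strength alone and untreated controls. No group received bezafibrate without streptozotocin, and the sources used here do not name the muscle.

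The 14 muscle markers averaged between 13.2 and 13.4 on every array, as the tissue label requires. Control array 1 stood apart, with a mean of 11.9 for 14 hepatocyte genes against 9.88 on the next array of its group and 8.04 to 9.0 among the STZ,SD arrays, and with 8.98 for 8 testis germ cell genes against at most 5.95 on any other array. Arrays of the same group correlated within 0.959 and 0.995 for Con,SD, within 0.988 and 0.996 for STZ,SD and within 0.993 and 0.995 for STZ,BEZ. Control arrays 1, 3 and 4 had been set apart in an earlier look at these data, and counts without them are given beside the results. That set does not follow the hepatocyte mean, which was 7.48 on control array 4, the lowest of all arrays. Control array 2, with 9.88, was kept. Counts without these 3 arrays are therefore not a check on the hepatocyte genes.

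In STZ,SD against Con,SD, 18 of the 33 members (54.5%) changed at an adjusted p under 0.1 (limma, Benjamini-Hochberg over 19938 genes), and 15 of them were higher. Over all genes 25.8% were called in this comparison, 13.9% as higher and 11.9% as lower. The median change of the 33 members was 0.14 on the log2 scale, against -0.01 over all genes, and the median size of the change without its sign was 0.18 against 0.12. All 33 members were brighter than the dimmest 30% of genes, and among the 13956 genes left after those were removed 34.3% were called, with 19 members among them. In 8 of the 33 members (24.2%) no STZ,SD array overlapped a Con,SD array, compared with 8.3% of all genes. Eif4e, on a probe set put in doubt below, is among these 8. These are bulk samples, so fewer cells of a type and less RNA per cell cannot be told apart. Without control arrays 1, 3 and 4 together 13 members were called, and with the hepatocyte level as a covariate 18 were. These counts, and those under other settings below, are given without the share of all genes called in the same fit. A change in such a count can therefore not be read as particular to the members.

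The higher members lay at several levels of the pathway. They were the PI3K subunits Pik3r1, Pik3r2, Pik3ca and Pik3c2a, then Akt1, Gsk3a, Gsk3b, Rictor, Rptor and Tsc2, then Eif4ebp1, Eif4ebp2, Inpp5k, Ptpn1 and Ddit4. The PDK1 gene Pdpk1, Mtor and the S6 kinase gene Rps6kb2 were not called. The 3 lower members were Rheb, Inppl1 and Eif4e. The counts by role given below stand beside the 25.8% of all genes called, 13.9% as higher and 11.9% as lower. None of the 33 members was called when STZ,BEZ was set against STZ,SD.

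**Figure D1:**
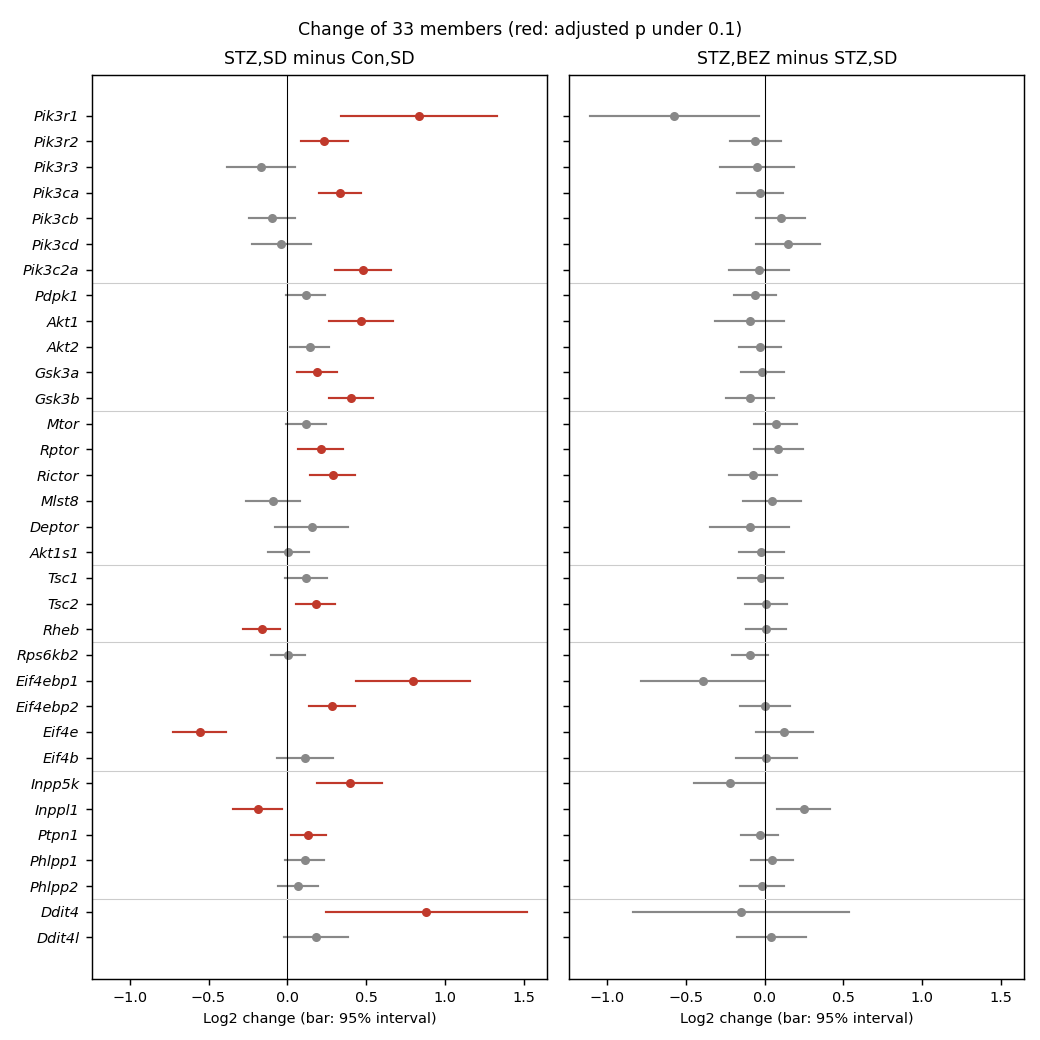
Log2 change of each of the 33 members in STZ,SD minus Con,SD (left) and STZ,BEZ minus STZ,SD (right), with points at the limma estimate, bars for the 95% interval and red for an adjusted p under 0.1. Thin lines separate the roles, from PI3K subunits at the top to the REDD proteins at the bottom. On the left 18 members are red, 15 of them to the right of 0, and on the right none is.

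Other cell types moved with the same groups. The mean of 10 endothelial markers lay between 8.55 and 8.78 in Con,SD, between 8.77 and 9.02 in STZ,SD and between 8.87 and 8.97 in STZ,BEZ. Of the 10, 5 were called higher in STZ,SD, where 13.9% of all genes were. The mean of 6 satellite cell markers lay between 6.63 and 6.84 in Con,SD and between 6.85 and 6.97 in STZ,SD, and 2 of the 6 were called higher. The 7 macrophage markers spanned 7.21 to 7.69 in Con,SD and 7.08 to 7.89 in STZ,SD, with none called. The part of these shifts in the changes of the members was not tested.

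Of the 7 PI3K genes, 4 rose in STZ,SD and none fell. Pik3r1 encodes p85 alpha, the main regulatory subunit, which docks on insulin receptor substrates. Its log2 values on the Con,SD arrays had a lowest of 9.32, a median of 9.58 and a highest of 9.77. On STZ,SD arrays 1 to 5 they were 10.34, 11.31, 11.03, 9.48 and 9.75, and on STZ,BEZ arrays 1 to 5 they were 9.64, 9.90, 9.48, 9.99 and 10.05. Arrays 1, 2 and 3 of STZ,SD stood above every other array, while arrays 4 and 5 lay within the control range. Pik3r1 was 1.78-fold higher in STZ,SD than in Con,SD, a log2 change of 0.83 ± 0.24 (SE) with a limma adjusted p of 0.0193. Its SD was 0.79 over the 5 STZ,SD arrays against 0.16 over the 7 controls. The SE and adjusted p rest on 1 spread shared by all groups, which understates that of STZ,SD.

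Pik3c2a, a class II PI3K that acts in vesicle traffic, separated the groups. Its log2 values had a lowest of 7.38, a median of 7.60 and a highest of 7.73 in Con,SD. They were 8.09, 8.20, 8.25, 7.88 and 7.86 on the STZ,SD arrays and 7.93, 8.06, 7.87, 8.24 and 8.00 on the STZ,BEZ arrays. Every array of both streptozotocin groups lay above every control. The log2 change was 0.48 ± 0.08 (SE), 1.39-fold (limma adjusted p = 0.000807).

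Pik3ca, the catalytic subunit p110 alpha that mediates most insulin signalling in muscle, rose by 0.33 ± 0.06 (SE) on the log2 scale without overlap of the arrays (limma adjusted p = 0.00154). Pik3r2, the regulatory subunit p85 beta, rose by 0.23 ± 0.07 (limma adjusted p = 0.0292). The regulatory subunit gene Pik3r3 and the catalytic subunit genes Pik3cb and Pik3cd were not called, with log2 changes of -0.17, -0.10 and -0.04.

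Among the 5 kinase genes below PI3K, Akt1, Gsk3a and Gsk3b rose and none fell. Akt1 is the broadly expressed Akt kinase known for growth control. The Con,SD arrays had a lowest log2 value of 8.97, a median of 9.16 and a highest of 9.26. They were 9.68, 9.91, 9.84, 9.32 and 9.37 on the STZ,SD arrays and 9.36, 9.46, 9.49, 9.65 and 9.70 on the STZ,BEZ arrays. As for Pik3r1, arrays 1, 2 and 3 of STZ,SD were the highest of their group, but here arrays 4 and 5 also lay above all controls. The log2 change was 0.47 ± 0.10 (SE), 1.38-fold (limma adjusted p = 0.00267).

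Gsk3b, a kinase that inhibits glycogen synthase until Akt phosphorylates it, showed a tighter shift. In Con,SD its log2 values had a lowest of 9.73, a median of 9.84 and a highest of 9.97. They were 10.25, 10.32, 10.40, 10.13 and 10.18 on the STZ,SD arrays and 10.09, 10.20, 9.97, 10.29 and 10.27 on the STZ,BEZ arrays. All arrays of both streptozotocin groups lay above the highest control, although STZ,BEZ array 3 did so narrowly. The log2 change in STZ,SD was 0.40 ± 0.07 (SE), 1.32-fold (limma adjusted p = 0.000513).

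Gsk3a, the related kinase, rose by 0.19 ± 0.06 (SE) on the log2 scale (limma adjusted p = 0.0346), a call lost without STZ,SD array 5 (adjusted p = 0.101) and without control arrays 1, 3 and 4 (adjusted p = 0.141). Pdpk1, the gene of PDK1, which phosphorylates Akt in its activation loop, had a log2 change of 0.12 (limma adjusted p = 0.183), and was called without control array 6 (adjusted p = 0.082) and after a second quantile normalization (adjusted p = 0.0799). Akt2, the Akt kinase known for insulin-stimulated glucose uptake, had a log2 change of 0.14 and missed the threshold with a limma adjusted p of 0.101. Akt2 was called in 7 of 30 alternatives, among them a second quantile normalization (adjusted p = 0.0323), the hepatocyte level as a covariate (adjusted p = 0.0911) and the fits without control array 2 (adjusted p = 0.0714), STZ,SD array 4 (adjusted p = 0.0556) or STZ,SD array 5 (adjusted p = 0.0797).

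The promoter of Akt1 is shown because it was the only member promoter with the FoxO letters GTAAACA, searched on both strands of the 250 bases before and 50 bases after each start site. It is the RefSeq sequence of GRCm38.p6 on the minus strand, chr12:112674885-112675134, 5′ to 3′ up to the start site, with the match, which reads TGTTTAC because it lies on the other strand, in capitals.
Akt1: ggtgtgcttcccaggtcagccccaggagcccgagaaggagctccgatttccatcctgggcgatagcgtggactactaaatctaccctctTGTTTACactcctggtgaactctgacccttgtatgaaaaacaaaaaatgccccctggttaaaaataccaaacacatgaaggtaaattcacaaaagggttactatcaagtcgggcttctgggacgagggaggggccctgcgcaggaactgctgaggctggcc
A promoter entry was matched for 30 of the 33 members, and the 1 member with this match compares with 4.05% of 27025 genes. The letters TGATGNAA, which ATF4 and C/EBP factors bind, were in the promoters of Pik3cd and Akt2 and in 4.51% of genes. A match of letters is a description and shows no binding.

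Of the 6 genes for mTOR and its partners, Rictor and Rptor rose and none fell. Rictor defines mTORC2, the complex that phosphorylates Akt. Among the 7 controls its lowest log2 value was 7.89, its median 8.01 and its highest 8.27. They were 8.43, 8.42, 8.40, 8.16 and 8.26 on the STZ,SD arrays and 8.19, 8.27, 8.18, 8.31 and 8.36 on the STZ,BEZ arrays. The highest control overlapped the lower arrays of both groups. The log2 change in STZ,SD was 0.29 ± 0.07 (SE), 1.22-fold (limma adjusted p = 0.00636).

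Rptor defines mTORC1, the complex that controls translation. Its log2 values in Con,SD had a lowest of 7.95, a median of 8.12 and a highest of 8.23. They were 8.44, 8.24, 8.20, 8.29 and 8.33 on the STZ,SD arrays and 8.34, 8.52, 8.54, 8.27 and 8.26 on the STZ,BEZ arrays. Here the STZ,BEZ arrays held the 2 highest values and none of them overlapped the controls. The log2 change in STZ,SD was 0.21 ± 0.07 (SE, limma adjusted p = 0.0416), and the call was lost without STZ,SD array 1 (adjusted p = 0.108) and without control arrays 1, 3 and 4 (adjusted p = 0.102).

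Mtor itself, the shared kinase of both complexes, had a log2 change of 0.12 in STZ,SD (limma adjusted p = 0.189), and was called without STZ,SD array 5 (adjusted p = 0.0668). The shared subunit Mlst8 had -0.09, and the mTOR inhibitors Deptor and Akt1s1 (PRAS40) had 0.15 and 0.0050, none of them called.

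Tsc2 and Rheb, which act in opposite directions on mTORC1, moved in opposite directions. Tsc2 encodes tuberin, the part of the TSC complex that switches Rheb off. The Con,SD arrays had a lowest log2 value of 9.55, a median of 9.68 and a highest of 9.84. They were 9.78, 9.86, 9.86, 9.93 and 9.90 on the STZ,SD arrays and 9.80, 9.95, 9.97, 9.91 and 9.76 on the STZ,BEZ arrays. The lowest STZ,SD array and 2 STZ,BEZ arrays fell within the control range. Tsc2 rose by 0.18 ± 0.06 (SE) on the log2 scale (limma adjusted p = 0.0423), a call lost without control arrays 1, 3 and 4 (adjusted p = 0.201) and with the hepatocyte level as a covariate (adjusted p = 0.111).

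Rheb, the GTPase that activates mTORC1, fell by 0.16 ± 0.06 (SE) on the log2 scale in STZ,SD (limma adjusted p = 0.0478), and lost the call without STZ,SD array 4 (adjusted p = 0.1) or array 5 (adjusted p = 0.111). Tsc1, the stabilising partner of Tsc2, had a log2 change of 0.12 and was called only without STZ,SD array 1 (limma adjusted p = 0.0933, against 0.199 with all arrays).

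Rheb is also a member whose promoter held the E-box CACGTG, the letters bound by basic helix-loop-helix factors such as TFEB and MYC, which is why it is shown. It is the RefSeq sequence of GRCm38.p6 on the minus strand, chr5:24842362-24842611, 5′ to 3′ up to the start site, with the E-box in capitals.
Rheb: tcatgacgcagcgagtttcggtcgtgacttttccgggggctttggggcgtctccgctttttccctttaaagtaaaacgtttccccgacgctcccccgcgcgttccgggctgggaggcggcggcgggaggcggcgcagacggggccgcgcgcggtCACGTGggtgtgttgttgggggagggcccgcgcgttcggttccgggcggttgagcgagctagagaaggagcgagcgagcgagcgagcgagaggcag
The E-box, which reads alike on both strands, was in the promoters of 2 members, Rheb and Eif4e, and in those of 8.09% of all genes.

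At the translation end of the pathway, 2 of 5 genes rose and Eif4e fell, the latter on a probe set in doubt. Eif4ebp1 encodes the translational repressor that holds eIF4E until mTORC1 phosphorylates it. Among the 7 controls its lowest log2 value was 9.32, its median 9.47 and its highest 9.56. They were 10.08, 10.91, 10.67, 9.59 and 9.98 on the STZ,SD arrays and 9.57, 9.80, 9.67, 9.97 and 10.27 on the STZ,BEZ arrays. Every array of both streptozotocin groups lay above every control, with STZ,SD arrays 2 and 3 again the highest and array 4 the lowest of its group. In STZ,SD the gene was 1.74-fold higher, a log2 change of 0.80 ± 0.17 (SE, limma adjusted p = 0.00351).

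Eif4ebp2, the second binding protein of this kind, rose by 0.28 ± 0.07 (SE) on the log2 scale with no overlap of the arrays (limma adjusted p = 0.00872). Eif4b, a helicase cofactor and S6 kinase substrate, had a log2 change of 0.11, and Rps6kb2, the S6 kinase 2 gene, had 0.0033, neither of them called.

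Eif4e encodes the cap-binding protein itself. On its brightest probe set the Con,SD arrays had a lowest log2 value of 9.26, a median of 9.39 and a highest of 9.56. The STZ,SD arrays had 9.0, 8.50, 8.71, 9.0 and 8.95 and the STZ,BEZ arrays 8.92, 8.90, 8.95, 9.05 and 8.96. All arrays of both groups lay below all controls, with a log2 change of -0.56 ± 0.08 (SE, limma adjusted p = 0.000141) in STZ,SD.

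That probe set cannot be taken as a plain measure of Eif4e. The gene lies on chromosome 3, but 19 of the 20 nearest named probe sets in the numbering of the array belong to genes on chromosome X. The other 2 probe sets of Eif4e stand among chromosome 3 genes, and with each probe set tested by itself their log2 changes were -0.12 ± 0.12 (SE, limma adjusted p = 0.506) and -0.0010 ± 0.11 (limma adjusted p = 0.996). The mean of the 3 probe sets changed by -0.23 (limma adjusted p = 0.0223). Akt2 was measured in the same way, by a probe set of which 19 of the 20 neighbours are genes of chromosome 11 while the gene lies on chromosome 7, and its second probe set, among chromosome 7 genes, gave 0.17 (limma adjusted p = 0.149) against 0.14 for the first. The other 31 members were measured by probe sets that stand among genes of their own chromosome. With the own-chromosome probe sets of both genes, 17 members were called, 15 higher and 2 lower. Whether the brightest probe sets also measure a copy elsewhere in the genome was not tested.

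**Figure D2:**
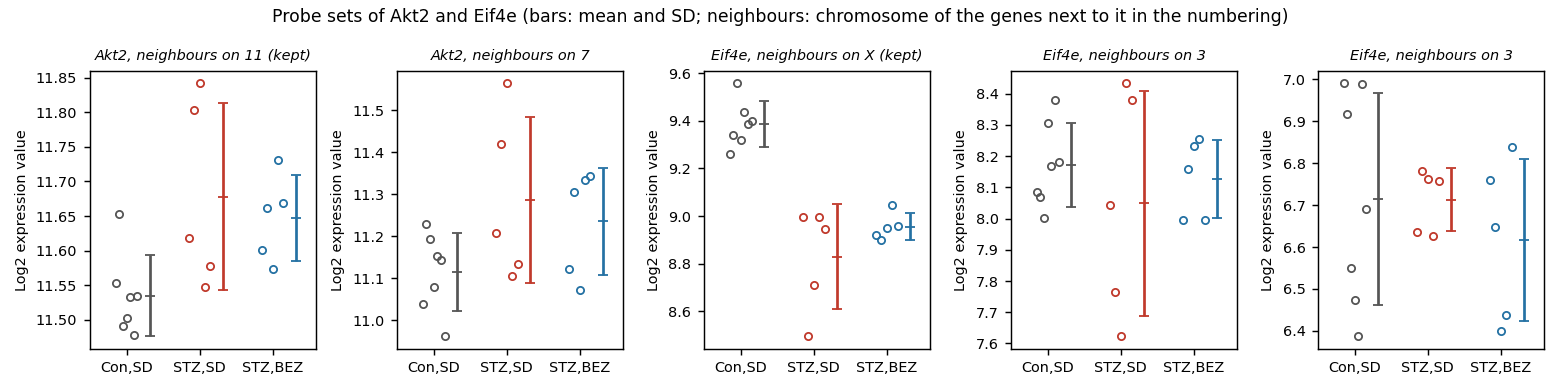
Log2 expression values of the probe sets of Akt2 and Eif4e on each array of Con,SD, STZ,SD and STZ,BEZ, with open circles for arrays and bars for mean and SD, on a scale of its own in each panel. Titles give the chromosome of the neighbours in the array numbering. The Eif4e probe set with neighbours on X separates the groups, and the other 2 overlap.

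Of the 5 phosphatase genes, which oppose insulin signalling, Inpp5k and Ptpn1 rose and Inppl1 fell. Inpp5k encodes SKIP, a lipid phosphatase of skeletal muscle and kidney that removes the product of PI3K. Its log2 values in Con,SD had a lowest of 9.69, a median of 9.95 and a highest of 10.10. They were 10.20, 10.65, 10.53, 10.09 and 10.11 on the STZ,SD arrays and 10.04, 10.13, 10.08, 10.02 and 10.20 on the STZ,BEZ arrays. STZ,SD arrays 2 and 3 stood well above the rest, and the other arrays of both groups lay in the upper part of the control range or just above it. The log2 change in STZ,SD was 0.39 ± 0.10 (SE), 1.31-fold (limma adjusted p = 0.00961).

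Inppl1 encodes SHIP2, another phosphatase for the same lipid. The Con,SD arrays had a lowest log2 value of 9.07, a median of 9.27 and a highest of 9.33. They were 9.08, 8.81, 8.97, 9.24 and 9.07 on the STZ,SD arrays and 9.32, 9.28, 9.46, 9.20 and 9.15 on the STZ,BEZ arrays. The groups overlapped. Inppl1 fell by 0.19 ± 0.07 (SE) on the log2 scale in STZ,SD (limma adjusted p = 0.0864), and the call was lost without any of control arrays 1, 3, 4 and 7, STZ,SD arrays 1, 2, 3 and 5 or STZ,BEZ array 2, at adjusted p values up to 0.243.

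Ptpn1, the gene of PTP1B, which dephosphorylates the insulin receptor, rose by 0.13 ± 0.05 (SE) on the log2 scale with no overlap of the arrays (limma adjusted p = 0.0796), but the call was lost with median centring (adjusted p = 0.177) and without any of the 5 STZ,SD arrays or control arrays 2, 5, 6 and 7. The Akt phosphatases Phlpp1 and Phlpp2 had log2 changes of 0.11 and 0.07 and were not called.

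Ddit4 encodes REDD1, an inhibitor of mTORC1 induced by stress and glucocorticoids. Among the 7 controls its lowest log2 value was 6.34, its median 6.83 and its highest 7.10. They were 7.25, 8.88, 8.10, 6.89 and 7.52 on the STZ,SD arrays and 7.04, 7.19, 7.02, 8.59 and 8.04 on the STZ,BEZ arrays. Arrays 2 and 3 of STZ,SD and arrays 4 and 5 of STZ,BEZ stood far above the rest. The log2 change of 0.88 ± 0.30 (SE), 1.84-fold, was the largest among the members and had the widest SE (limma adjusted p = 0.0503). The SD was 0.78 over the STZ,SD arrays and 0.25 over the controls, and the shared spread behind the SE understates the former. The call was lost without STZ,SD array 2 (adjusted p = 0.158) or array 3 (adjusted p = 0.125) and without control arrays 1, 3 and 4 (adjusted p = 0.135). Ddit4l, the gene of the muscle-enriched relative REDD2, had a log2 change of 0.18 and was not called.

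**Figure D3:**
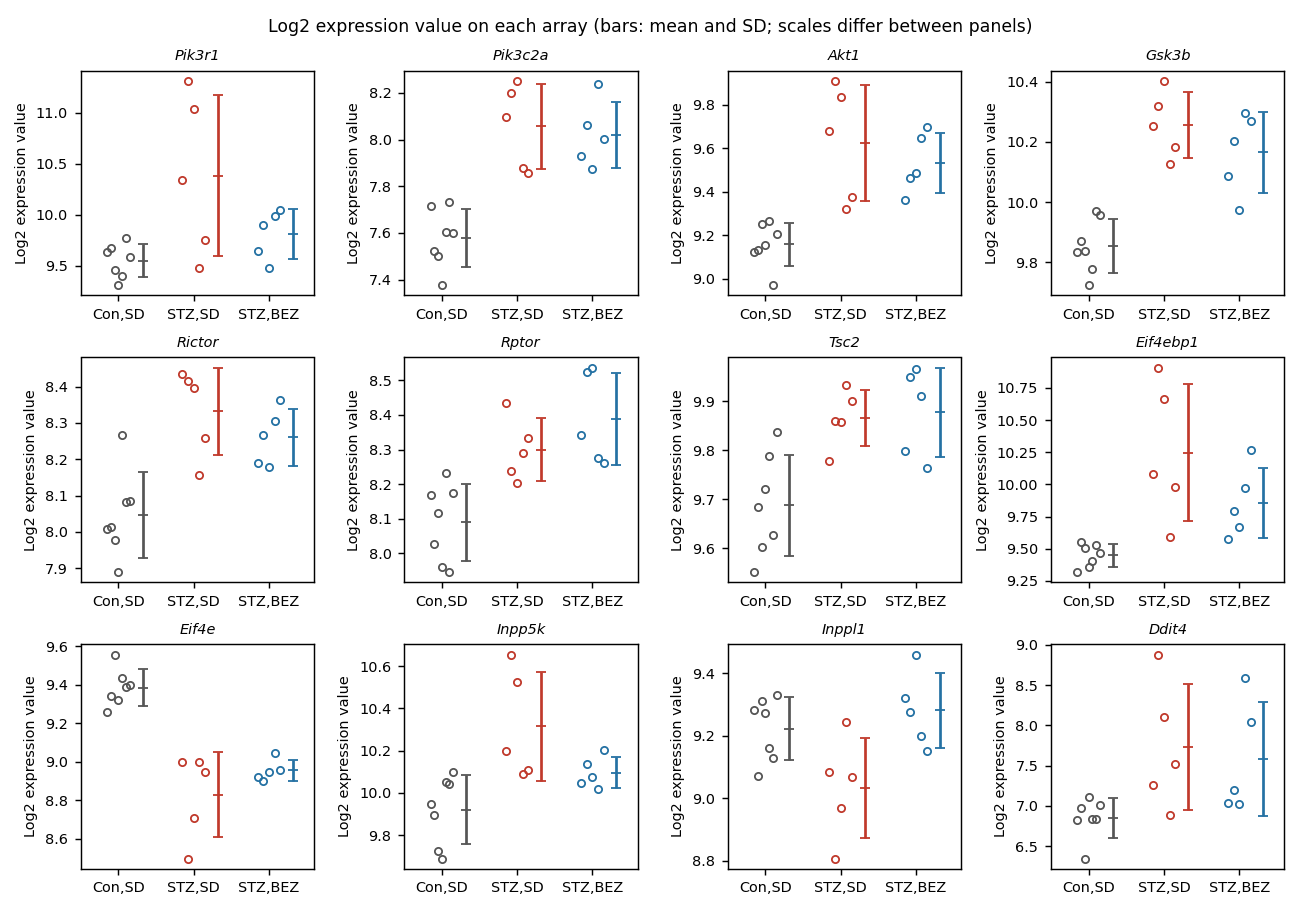
Log2 expression values of 12 members on each array of Con,SD (7 arrays), STZ,SD (5) and STZ,BEZ (5), with open circles for arrays and bars for mean and SD, on a scale of its own in each panel. Pik3r1, Eif4ebp1, Inpp5k and Ddit4 show the 2 STZ,SD arrays that stand above their group, and Pik3c2a and Gsk3b show shifts without overlap with the controls. The Eif4e panel holds the probe set in doubt.

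The size of the change varied between the streptozotocin mice. Among the 18 called members, STZ,SD array 2 was the farthest from the control mean in 8 (44.4%), array 5 in 5 (27.8%), arrays 1 and 3 in 2 each and array 4 in 1. Array 4 was the nearest in 9 (50%) and array 3 in 5 (27.8%), so no order of the arrays held over the list. Over the 5142 genes called in the whole table, array 2 was the farthest and array 4 the nearest in 34.6% each. In Pik3r1, Eif4ebp1 and Ddit4, the 3 members with the largest changes, array 2 came first, array 3 second and array 4 last within STZ,SD.

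Some marker lists had extreme values on STZ,SD array 2, array 3 or both. The mean of 7 adipocyte markers was 7.85 on array 2, the lowest of the 17 arrays, where the next was 8.32. Array 3 had 8.64. The means of the 7 macrophage markers, 7.14 on array 2 and 7.08 on array 3, were the 2 lowest of all arrays, with 7.20 on STZ,BEZ array 5. The means of 7 smooth muscle markers, 8.84 and 8.98, were the highest of their group, but the STZ,BEZ arrays spanned 8.77 to 8.97. The means of the 6 satellite cell markers, 6.86 on array 2 and 6.85 on array 3, were the 2 lowest of STZ,SD, where array 4 had 6.88. The hepatocyte mean of 9.0 on array 2 was the highest of STZ,SD, and array 3 had 8.24. The muscle, hepatocyte, testis germ cell, endothelial, Schwann cell and red blood cell lists did not have both arrays as the 2 highest or 2 lowest of STZ,SD. The part of any of these lists in the high values of these arrays was not tested. The median SD of the members was 0.12 in both Con,SD and STZ,SD and 0.09 in STZ,BEZ, so the wide spread belonged to a few members and not to the list.

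**Figure D4:**
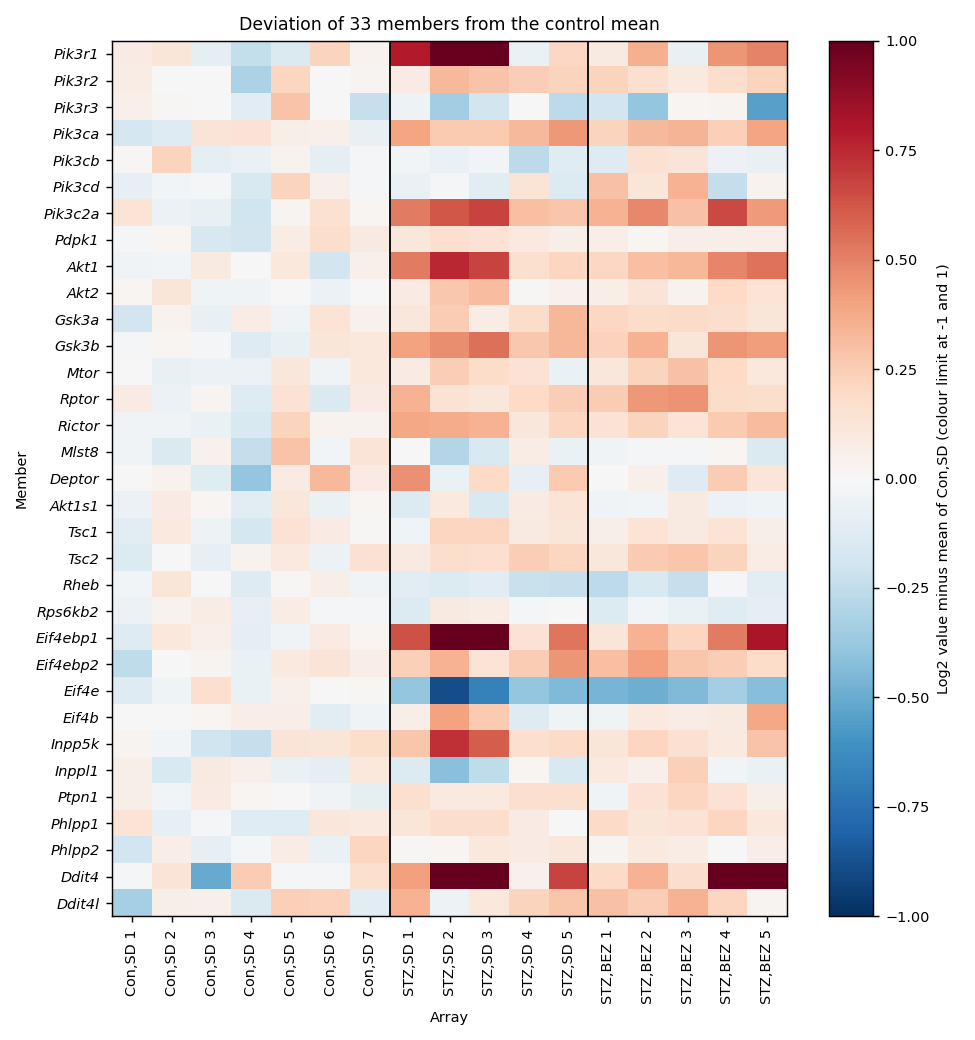
Log2 value of each of the 33 members (rows, by role) on each of the 17 arrays (columns) minus the mean of the 7 Con,SD arrays, in red above and in blue below that mean, with colours capped at -1 and 1. Dark red cells for Pik3r1, Eif4ebp1 and Ddit4 fall on STZ,SD arrays 2 and 3, and for Ddit4 also on STZ,BEZ arrays 4 and 5, while Gsk3b and Pik3c2a are red across both streptozotocin groups.

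In STZ,BEZ against STZ,SD none of the 33 members was called, where over all genes 4 (0.0201%) were called by limma, and SAM also called no member. At an unadjusted p under 0.05, 3 members passed, 1 higher and 2 lower, compared with 5.69% of all genes (3.55% higher and 2.14% lower), and no member separated the groups without overlap, compared with 1.16% of all genes. Pik3r1 was 0.57 ± 0.25 (SE) lower on the log2 scale in STZ,BEZ (limma adjusted p = 0.87). Eif4ebp1 was 0.39 ± 0.19 lower (limma adjusted p = 0.876). Inppl1 was 0.25 ± 0.08 higher (limma adjusted p = 0.778). None of these 3 differences held after adjustment. The median difference over the 33 members was -0.02, against 0.0016 over all genes.

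The precision set a limit on what could have been missed. For 30 of the 33 members the 95% interval of the bezafibrate difference lay within 1.5-fold either way, and for 26 within 1.25-fold. Akt1 differed by -0.09 on the log2 scale, with an interval from -0.31 to 0.13. Pik3c2a differed by -0.04, from -0.23 to 0.16, and Gsk3b by -0.09, from -0.24 to 0.06. The 3 members with wider intervals were Pik3r1, from -1.11 to -0.04, Eif4ebp1, from -0.78 to -0.0026, and Ddit4, from -0.84 to 0.54. All these intervals rest on the spread shared by all groups. The SD of Pik3r1 was 0.79 in STZ,SD and 0.24 in STZ,BEZ, and that of Eif4ebp1 was 0.53 and 0.27. For both genes the shared spread understates that of STZ,SD, so their intervals are too narrow.

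In STZ,BEZ against Con,SD, 13 of the 33 members (39.4%) were called, 11 higher and 2 lower, against 21.6% of all genes (13.1% higher and 8.45% lower). These are the control arrays that STZ,SD was set against too, so the members' values are given side by side. In 8 members, Eif4e on the probe set in doubt among them, the arrays did not overlap, and over all genes the share was 8.51%. Without control arrays 1, 3 and 4 together, or without STZ,BEZ array 2, 8 members were called. The 14 hepatocyte markers averaged 7.61 to 8.27 in STZ,BEZ against 7.48 to 11.9 in Con,SD, with 8 of them called lower, and with this level as a covariate 10 members were called. Of the endothelial markers 5 of 10, and of the satellite cell markers 3 of 6, were called higher in STZ,BEZ than in Con,SD, and their part in the result was not tested.

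Pik3ca changed by 0.30 in STZ,BEZ and by 0.33 in STZ,SD on the log2 scale, each against Con,SD (limma adjusted p = 0.004 and 0.00154). Pik3c2a changed by 0.44 and 0.48 (limma adjusted p = 0.00213 and 0.000807). Akt1 changed by 0.37 and 0.47 (limma adjusted p = 0.0149 and 0.00267). These kinase genes were called against the controls in both groups. Gsk3b changed by 0.31 and 0.40 (limma adjusted p = 0.00485 and 0.000513). Eif4ebp2 changed by 0.28 in both (limma adjusted p = 0.0105 and 0.00872). Rptor changed by 0.30 in STZ,BEZ and 0.21 in STZ,SD (limma adjusted p = 0.0075 and 0.0416). The difference between the groups was called for none of these genes.

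The remaining called members of STZ,BEZ against Con,SD were Gsk3a with a log2 change of 0.18, Rictor with 0.21, Tsc2 with 0.19, Mtor with 0.19, Phlpp1 with 0.16, Rheb with -0.15 and Eif4e with -0.43 on the probe set in doubt, at limma adjusted p values from 0.00165 to 0.0874. Leaving out 1 array ended the call of Gsk3a (control array 3, STZ,BEZ arrays 1, 2 and 3), Mtor (STZ,BEZ arrays 2 and 3), Rictor (STZ,BEZ array 5), Tsc2 (STZ,BEZ array 2), Rheb (control arrays 2 and 6, STZ,BEZ arrays 1, 2 and 3) and Phlpp1 (control arrays 2 to 5 and every STZ,BEZ array), with adjusted p values from 0.101 to 0.176. Mtor and Phlpp1 were called here and not in STZ,SD, with STZ,BEZ minus STZ,SD differences of 0.07 and 0.05 that were not called. The 7 members called in STZ,SD and not in STZ,BEZ were, with their change in STZ,BEZ against Con,SD, Pik3r1 with a log2 change of 0.26 (limma adjusted p = 0.481), Inpp5k with 0.17 (0.249), Eif4ebp1 with 0.41 (0.121), Ddit4 with 0.73 (0.114), Pik3r2 with 0.18 (0.108), Ptpn1 with 0.10 (0.186) and Inppl1 with 0.06 (0.635). Several of these passed under other settings. Eif4ebp1 was called with only the 2 groups compared in the fit (limma adjusted p = 0.0168) and without STZ,SD array 2 (0.0648), STZ,SD array 4 (0.0677) or STZ,BEZ array 1 (0.0977). Ddit4 was called with only the 2 groups in the fit (limma adjusted p = 0.0625), without the dimmest 30% of genes (0.0936) and without STZ,SD array 2 (0.0617), STZ,SD array 4 (0.0928) or STZ,BEZ arrays 1 (0.0867) or 3 (0.0889). Pik3r2 was called with the hepatocyte covariate (limma adjusted p = 0.0499), with median centring (0.0996), without the dimmest genes (0.0866) and without control arrays 1 (0.0959) or 5 (0.049). Ptpn1 was called without STZ,BEZ array 1 (limma adjusted p = 0.0801), and SAM called Pik3r1, Eif4ebp1 and Ddit4. None of the 7 had a called difference between the groups, and in Eif4ebp1 all STZ,BEZ arrays still lay above all controls.

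Related members were then set against each other within each array, in 11 pairs. The pairs were chosen after the values of their members were seen, so their differences are a description and carry no test. The log2 levels of different probe sets cannot be compared, but the difference of a pair can be set side by side between groups, and own-chromosome probe sets were used for Akt2 and Eif4e. Pik3ca minus Pik3cb was 2.02 to 2.32 in STZ,SD and 1.39 to 1.97 in Con,SD, with means 0.43 apart. Tsc2 minus Rheb was -0.04 to 0.22 in STZ,SD and -0.37 to -0.07 in Con,SD, with means 0.34 apart. In these 2 pairs the arrays of STZ,SD and Con,SD did not overlap. Inpp5k minus Inppl1 was 0.85 to 1.85 in STZ,SD and 0.41 to 0.91 in Con,SD, with means 0.58 apart. Akt1 minus Akt2 was -1.78 to -1.51 in STZ,SD and -2.17 to -1.76 in Con,SD, with means 0.29 apart. Both of these pairs overlapped. Without control arrays 1, 3 and 4 the same 4 differences of means were 0.49, 0.34, 0.43 and 0.32.

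In the other 7 pairs the arrays of STZ,SD and Con,SD overlapped as well. The differences of means were 0.92 for Eif4ebp1 minus Eif4e, 0.21 for Gsk3b minus Gsk3a, 0.52 for Eif4ebp1 minus Eif4ebp2 and 0.60 for Pik3r1 minus Pik3r2. They were 0.70 for Ddit4 minus Ddit4l, 0.08 for Rictor minus Rptor and 0.04 for Phlpp1 minus Phlpp2. Between STZ,BEZ and STZ,SD the arrays of all 11 pairs overlapped.

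**Figure D5:**
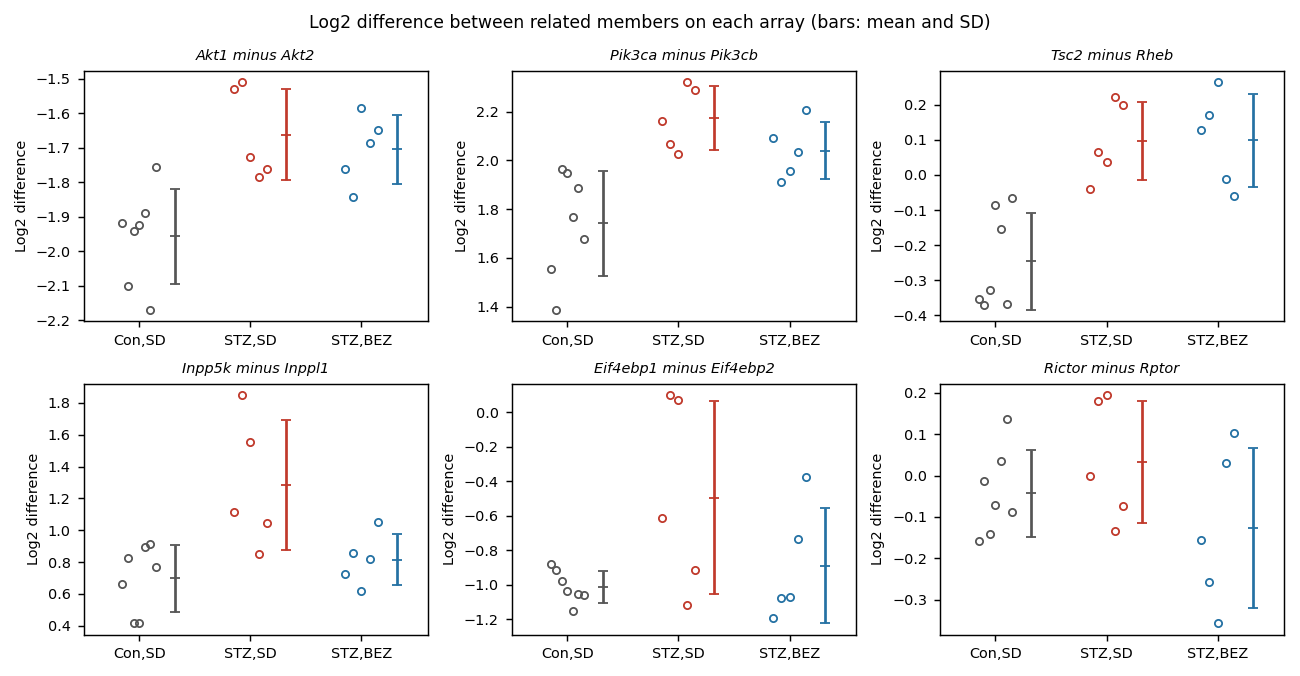
Log2 difference between 2 related members on each array of Con,SD, STZ,SD and STZ,BEZ, with open circles for arrays and bars for mean and SD, on a scale of its own in each panel. Pik3ca minus Pik3cb and Tsc2 minus Rheb separate STZ,SD from Con,SD, while Eif4ebp1 minus Eif4ebp2 and Rictor minus Rptor overlap.

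A wider list of 94 measured genes of the same pathway, with no member in it, was called at a rate near that of the table. In STZ,SD against Con,SD 22 of the 94 (23.4%) changed, 17 higher and 5 lower, against 25.8% of all genes. In STZ,BEZ against Con,SD 25 did (26.6%), 21 higher and 4 lower, against 21.6%. In STZ,BEZ against STZ,SD none did. There 6 of the 94 passed an unadjusted limma p under 0.05, as did 5.69% of all genes.

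In the amino acid sensing arm, which reports nutrients to mTORC1 at the lysosome, 7 of 31 genes (22.6%) changed in STZ,SD, 6 of them higher. Over all genes 25.8% did. Sesn1, a sestrin that restrains mTORC1 and a known FoxO and p53 target, rose by 1.45 ± 0.22 (SE) on the log2 scale (limma adjusted p = 0.00027), more than any member did. Kptn, part of the KICSTOR scaffold that restrains mTORC1, fell by 0.66 ± 0.10 (limma adjusted p = 0.000196). Slc3a2, the heavy chain of amino acid transporters, rose by 0.24 (limma adjusted p = 0.0377).

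Among the translation and growth targets 7 of 18 (38.9%) changed, 5 of them higher, against 25.8% of all genes. Rps6ka3, a ribosomal S6 kinase of the RSK family, rose by 0.57 (limma adjusted p = 0.000133). Eif4g3, a scaffold of the cap-binding complex, rose by 0.50 (limma adjusted p = 0.000276). Tfeb, the lysosomal transcription factor that mTORC1 restrains, rose by 0.32 (limma adjusted p = 0.00247).

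The remaining lists were each called at a rate below the 25.8% of all genes. Of 16 Akt relatives and regulators 3 changed. The pseudokinases Trib2 and Trib3 rose by 0.37 and 0.24 (limma adjusted p = 0.0101 and 0.0556), and Ppp2cb, a catalytic subunit of the phosphatase PP2A, fell by 0.33 (limma adjusted p = 0.00491). Of 10 further mTOR complex and assembly genes 2 changed, with Tti2, an assembly factor of mTOR-like kinases, up by 0.41 (limma adjusted p = 0.00025) and Mapkap1, a subunit of mTORC2, down by 0.22 (adjusted p = 0.07). Of 10 further phosphatases 2 changed, Inpp4b by 0.57 and Inpp4a by 0.17 (limma adjusted p = 0.00938 and 0.017), and both act on PI3K lipids. Of 9 further PI3K genes Pik3r6 alone passed, at 0.18 (limma adjusted p = 0.0662).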

How the data were processed

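RNA of skeletal muscle from 17 mice was measured on Affymetrix mouse gene arrays. Per the labels, the authors made the deposited log2 values with RMA in Affymetrix Expression Console 1.2, which corrects background, normalizes the arrays to the same distribution and summarises each probe set. RMA leaves no depth, so precision is set by the number of arrays and by the spread of each gene between them. The table held 35556 probe sets, of which 21789 carried 1 gene symbol, 1621 several and 12146 none. Those with 1 symbol, by GEO's platform annotation, gave 19938 genes, each taken from its probe set with the highest mean. Groups came from the sample titles.

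All 17 arrays were fitted in 1 model (R 4.3.3, limma 3.58.1, its lmFit and eBayes steps), and genes with a Benjamini-Hochberg adjusted p under 0.1 over all genes were called, the level the methods use with SAM. The model gave each gene 1 spread shared by the groups. On simulated data for STZ,SD against Con,SD (19938 genes, 200 changed), the fit recovered 95% of the genes changed 1.5-fold and 98% of those changed 2-fold, and 8.1% of its calls were false. The simulation gave each gene the same spread in every group. Its figures therefore do not cover members such as Pik3r1, whose spread differed between the groups. The members, gene lists and pairs were chosen with earlier results of these data known. Values on every array are given for the called members with the largest change in STZ,SD against Con,SD of each role, 2 in roles of 5 or more genes, and for those with an unadjusted p under 0.05 in STZ,BEZ against STZ,SD. Of the other pathway genes up to 3 per sublist are named, by smallest adjusted p. Promoters were taken from RefSeq (GRCm38.p6), and protein sequences were not used here. No pairing of the mice by replicate number was visible: of 15 same-numbered pairs of arrays none had a correlation of deviations over 0.1. This cannot show that the mice were unmatched. Alternatives covered scaling, filters, probe sets, the samples fitted, covariates, SAM and leaving out arrays.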

Additional observations from a re-analysis of the deposited data

Results flagged for a closer look

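Of 99 groups of values (33 members in 3 groups), 6 held an array whose gap to its nearest neighbour was a large part of the range of the group (Dixon's 95% criterion), and chance gives about 1 in 20. In Con,SD these were array 4 for Pik3r2 (7.13, next 7.44), array 2 for Pik3cb (8.04, next 7.85), array 2 for Akt2 (11.65, next 11.55, on the probe set among genes of another chromosome) and array 3 for Ddit4 (6.34, next 6.83). In STZ,BEZ they were array 2 for Pdpk1 (9.59, next 9.63) and array 3 for Akt1s1 (9.77, next 9.65). No STZ,SD array met the criterion in any member.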

How the results depend on the processing

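Of the 18 members called in STZ,SD against Con,SD, 10 were called under every alternative run (Akt1, Eif4ebp1, Eif4ebp2, Gsk3b, Inpp5k, Pik3c2a, Pik3ca, Pik3r1, Pik3r2 and Rictor), and 8 lost the call under at least 1, while 4 uncalled members (Akt2, Mtor, Pdpk1 and Tsc1) passed under at least 1. None of these alternatives gave a gene a separate spread in each group. In Pik3r1, Eif4ebp1 and Ddit4 the STZ,SD arrays spread far wider than the controls. The count ran from 15 to 18 when each array was left out in turn and from 13 to 19 otherwise. The counts under these settings stand without the share of all genes called in the same fit. With the replicate block 14 were called, although no pairing by replicate number was visible. In STZ,BEZ against Con,SD 6 of the 13 were called throughout (Akt1, Eif4ebp2, Gsk3b, Pik3c2a, Pik3ca and Rptor), and 7 uncalled members passed under at least 1 alternative. Leaving out each array in turn gave 8 to 15, with 8 without STZ,BEZ array 2, and leaving out control arrays 1, 3 and 4 together gave 8, while the replicate block gave 12. For the other pathway genes in this comparison the count was 16 after a second quantile normalization and 16 with the hepatocyte level as a covariate, against 25, and ran from 17 to 26 when each array was left out. No alternative called a member in STZ,BEZ against STZ,SD. No called change reversed. Own-chromosome probe sets for Akt2 and Eif4e were chosen after seeing the data and ended the calls of Eif4e alone. Median centring shifted the median of all genes by at most 0.02. The number of arrays limits the precision of the bezafibrate comparison.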
